A study of Ovis aries with 15 samples.

Results

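The core genes of the circadian clock were followed in RNA-seq libraries of the sheep mammary gland in late pregnancy and in lactation. Of 10 listed genes, 9 were found by symbol among the 24691 features of the table: ARNTL, CLOCK, NPAS2, PER1, PER2, CRY1, CRY2, NR1D1 and DBP. The listed symbol PER3 was not among the feature names, but the feature LOC100125623 carries the gene ID that RefSeq gives to PER3, and its values are described beside the 9 and not counted with them. All 10 features were measured in 15 libraries, 9 from late pregnancy (day 135 ± 2.4 SD of gestation) and 6 from lactation (day 15 ± 1.27 SD post partum).

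Each library was made from pooled total RNA of needle biopsies of mammary parenchyma from Romney ewes, all kept on the same feed. The ewes fell into 3 groups by the pasture allowance of their own dams between days 21 and 50 of gestation, which was ad libitum (HM), maintenance (MM) or sub-maintenance (LM), and all these dams were fed at maintenance from then to day 140. Every dam group had 3 pools in late pregnancy and 2 in lactation. By the labels a pool combined 3 ewes in late pregnancy but 2 in lactation. The methods of the study give 3 ewes for every pool, and which holds for lactation is not known. Per the study's methods, ewes biopsied in late pregnancy were biopsied again in lactation, so pools of the 2 states share ewes. Which pools share them is not given in the sources used here. P-values measure the spread between pools, which the main tests took as independent, with no account of ewes biopsied in both states. A pool averages over ewes that may have differed in clock phase.

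The clock is a feedback loop of transcription. The proteins ARNTL (also called BMAL1) and CLOCK, or its relative NPAS2, bind E-box elements as a pair and switch on the PER and CRY genes, whose proteins then accumulate and inhibit that pair. A second loop runs through NR1D1 (REV-ERBα), which represses ARNTL, while the ROR receptors activate it through the same element. DBP is an E-box target that acts on D-box elements together with TEF and HLF and against the repressor NFIL3. In most tissues of mammals ARNTL and NPAS2 peak at about the opposite time of day from NR1D1, DBP, PER1 and PER3, so a single biopsy records both the phase of the clock and the level of each gene. The mammary gland has such a clock, and in rodents its genes are known to change with pregnancy and lactation.

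The hour at which biopsies were taken is not given in the sources used here. State and sampling hour cannot be told apart in these libraries, and the differences below are differences between the 2 sets of biopsies.

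Sequencing placed 7597938 to 19823166 reads on genes in the libraries of late pregnancy and 10352962 to 25679416 in those of lactation. The 7 major milk protein genes took 13.7% to 23.4% of the counts in late pregnancy and 71.3% to 75.8% in lactation. Levels are given as CPM (read counts per 1000000) on library sizes scaled by TMM, a method that sets the bulk of genes equal between libraries. HM lactation pool 1 stood apart from the other lactation libraries, with 12.9% of its reads on introns against 5.74% to 6.54% in the other five and 13.8% to 15.3% in late pregnancy, and calls that change without it are given as such.

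Between the states, 6 of the 9 clock genes were higher in lactation, 1 was lower and 2 did not pass the test (quasi-likelihood F-test of edgeR, adjusted p under 0.05). ARNTL, CLOCK, NPAS2, PER2, CRY1 and CRY2 were higher, DBP was lower, and PER1 and NR1D1 were not called. LOC100125623 (PER3) was lower. Much of the transcriptome differed between these states, since 33.1% of 13345 tested genes were called higher and 35.2% lower. In all 68.4% of genes were called, beside 7 of the 9 clock genes. The median log2 change of the 9 genes was 0.28 and that of all tested genes -0.03.

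The direction of these changes is relative to the other genes of the library. Scaled by library size alone, without TMM, all 9 genes were lower in lactation, and the median log2 change of all genes was then -1.93. Leaving the 7 milk protein genes out of the library size put that median at -0.24, and upper quartile scaling put it at -0.18. In both of these scalings NPAS2 and CRY2 were no longer called and NR1D1 was called lower. Relative to the median of all genes, the changes of the 9 genes differed by at most 0.01, as rounded, among the 4 scalings.

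Markers of cell types moved between the states as well, and their counts stand beside 35.2% of all tested genes called lower and 33.1% called higher. Summed levels cover all matched markers of a type, also those that were not tested. All 6 T cell markers were lower in lactation, with a summed level of 38.6 to 61.4 CPM in late pregnancy and 12.7 to 19.3 CPM in lactation. Of 6 fibroblast markers 5 were lower (1310 to 2091 CPM against 618 to 997 CPM), as were 4 of 5 endothelial markers (198 to 272 CPM against 138 to 196 CPM). Of 5 luminal markers other than milk protein genes 4 were higher in lactation (3 without HM lactation pool 1), with 1284 to 1587 CPM in late pregnancy and 2162 to 2409 CPM in lactation. Myoepithelial markers were mixed, with 2 lower, 2 higher and summed levels of 526 to 592 CPM and 485 to 713 CPM. None of the 3 adipocyte markers tested was called (221 to 426 CPM against 301 to 392 CPM). Among 4 macrophage markers 2 were lower and 1 was higher (48.1 to 62.3 CPM against 45.5 to 60.2 CPM), with MARCO at no more than 3 reads in every library, and of 2 B or plasma cell markers 1 was lower and 1 higher (2.78 to 4.44 CPM against 3.51 to 7.99 CPM). The part of cell composition in the clock gene differences was not tested, and in bulk tissue fewer cells of a type and less RNA per cell cannot be told apart.

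The activator genes ARNTL, CLOCK and NPAS2 were higher in lactation. ARNTL (chromosome 15, 38890197 to 38921490, with coordinates here and below as in the deposited table and the build named Oar_v3.1 in the submitters' notes) encodes the partner that every activating pair of the clock needs. Its level was 0.775 CPM in the lowest late pregnancy library, 1.26 CPM at the median and 1.62 CPM in the highest, and 1.23, 2.26 and 2.48 CPM in lactation. In 5 of 6 lactation libraries ARNTL lay above every late pregnancy library, and the remaining one, of the HM group, lay inside their range. The log2 change was 0.81 (SE 0.22), a 1.75-fold higher level, with an edgeR adjusted p of 0.00317. Only 7 to 47 reads per library stood behind these values.

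CLOCK (chromosome 6, 70873036 to 70930701) encodes a partner of ARNTL. Its libraries in late pregnancy ran from 3.84 CPM through a median of 5.21 CPM to 6.3 CPM, and in lactation from 7.69 through 8.13 to 10 CPM. The 2 states did not overlap. The level was 1.62-fold higher in lactation (log2 change 0.70, SE 0.11, edgeR adjusted p = 1.8e-05).

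NPAS2 (chromosome 3, 100408578 to 100535450), which can stand in for CLOCK, was the most abundant of the activators and changed least. It ranged from 15.7 to 20.9 CPM in late pregnancy (median 17.7 CPM) and from 17 to 23.5 CPM in lactation (median 21.2 CPM). The states overlapped, with 3 of 6 lactation libraries above all of late pregnancy. The log2 change was 0.23 (SE 0.09, edgeR adjusted p = 0.0245). This call was lost without HM lactation pool 1 (log2 change 0.20, edgeR adjusted p = 0.061), without LM lactation pool 1 (0.19, adjusted p = 0.0738) and without MM lactation pool 2 (0.21, adjusted p = 0.0623).

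Of the cryptochromes, which are the main inhibitors of the activating pair, CRY1 showed the clearer difference. CRY1 (chromosome 3, 175346821 to 175432659) ranged from 9.47 to 13.9 CPM in late pregnancy, with a median of 11.2 CPM, and from 17.8 to 24.9 CPM in lactation, with a median of 20 CPM. Every lactation library lay above every late pregnancy library. The level was 1.83-fold higher (log2 change 0.88, SE 0.09, edgeR adjusted p = 5.0e-08), and this was the smallest adjusted p of the 10 features.

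CRY2 (chromosome 15, 74106332 to 74130609) ran from 5.6 through 6.93 to 7.98 CPM in late pregnancy and from 6.09 through 7.97 to 9.74 CPM in lactation. The states overlapped for CRY2, and 3 of 6 lactation libraries exceeded all of late pregnancy. Its log2 change of 0.28 (SE 0.12, edgeR adjusted p = 0.0359) was close to the threshold and did not hold when single libraries were left out. Without MM lactation pool 1 the edgeR adjusted p was 0.139, without LM lactation pool 1 it was 0.101, and without HM lactation pool 1 it was 0.0591. It lay between 0.05 and 0.06 without HM late pregnancy pool 3, LM late pregnancy pool 1, LM late pregnancy pool 2 or MM late pregnancy pool 3.

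The 3 period genes, which encode the partners of the cryptochromes in the inhibitory complex, each behaved differently. PER1 (chromosome 11, 27338759 to 27347879) is switched on both by the clock and by acute signals such as glucocorticoids and cyclic AMP. It ranged from 73.7 CPM through a median of 98.7 CPM to 140 CPM in late pregnancy and from 89.9 through 105 to 119 CPM in lactation. All lactation libraries lay inside the late pregnancy range. The log2 change was 0.09 (SE 0.11, edgeR adjusted p = 0.489), and its sign turned under 4 of the alternative analyses.

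PER2, placed on an unplaced scaffold and represented by an exon length of 1996 bases, was 2.27-fold higher in lactation (log2 change 1.18, SE 0.20, edgeR adjusted p = 3.6e-05). Its libraries lay between 1.03 and 1.92 CPM in late pregnancy (median 1.28 CPM) and between 2.14 and 4.94 CPM in lactation (median 2.94 CPM), with no overlap. The counts were small, at 14 to 47 reads per library.

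PER3 (LOC100125623, chromosome 12, 43655052 to 43722396) went the other way. Late pregnancy libraries held 0.639 to 1.41 CPM with a median of 1.04 CPM, and lactation libraries 0.113 to 0.609 CPM with a median of 0.311 CPM. Here too the states did not overlap, and the level was 2.76-fold lower in lactation (log2 change -1.46, SE 0.31, edgeR adjusted p = 3.4e-04). In lactation the gene was represented by 1 to 7 reads per library, so its level there is known only coarsely.

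NR1D1 and DBP are direct E-box targets that in many tissues report the phase of the clock. NR1D1 (chromosome 11, 39970553 to 39977351) ranged from 2.56 to 5.16 CPM in late pregnancy (median 3.4 CPM) and from 1.93 to 3.65 CPM in lactation (median 2.84 CPM). The ranges overlapped, and the log2 change of -0.30 (SE 0.17, edgeR adjusted p = 0.128) did not pass the threshold. DBP (chromosome 14, 54318156 to 54323546) ran from 8.14 through 10.5 to 12.3 CPM in late pregnancy and from 4.39 through 5.96 to 7.99 CPM in lactation. All 9 late pregnancy libraries lay above all 6 of lactation. DBP was 1.64-fold lower in lactation (log2 change -0.72, SE 0.15, edgeR adjusted p = 2.1e-04).

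CLOCK, PER2, CRY1 and DBP were thus the 4 of the 9 genes whose libraries did not overlap between the states, beside 40.2% of all tested genes. Without HM lactation pool 1, 5 of the 9 genes were called, 4 of them higher, and NPAS2 and CRY2 were the genes lost.

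**Figure D1:**
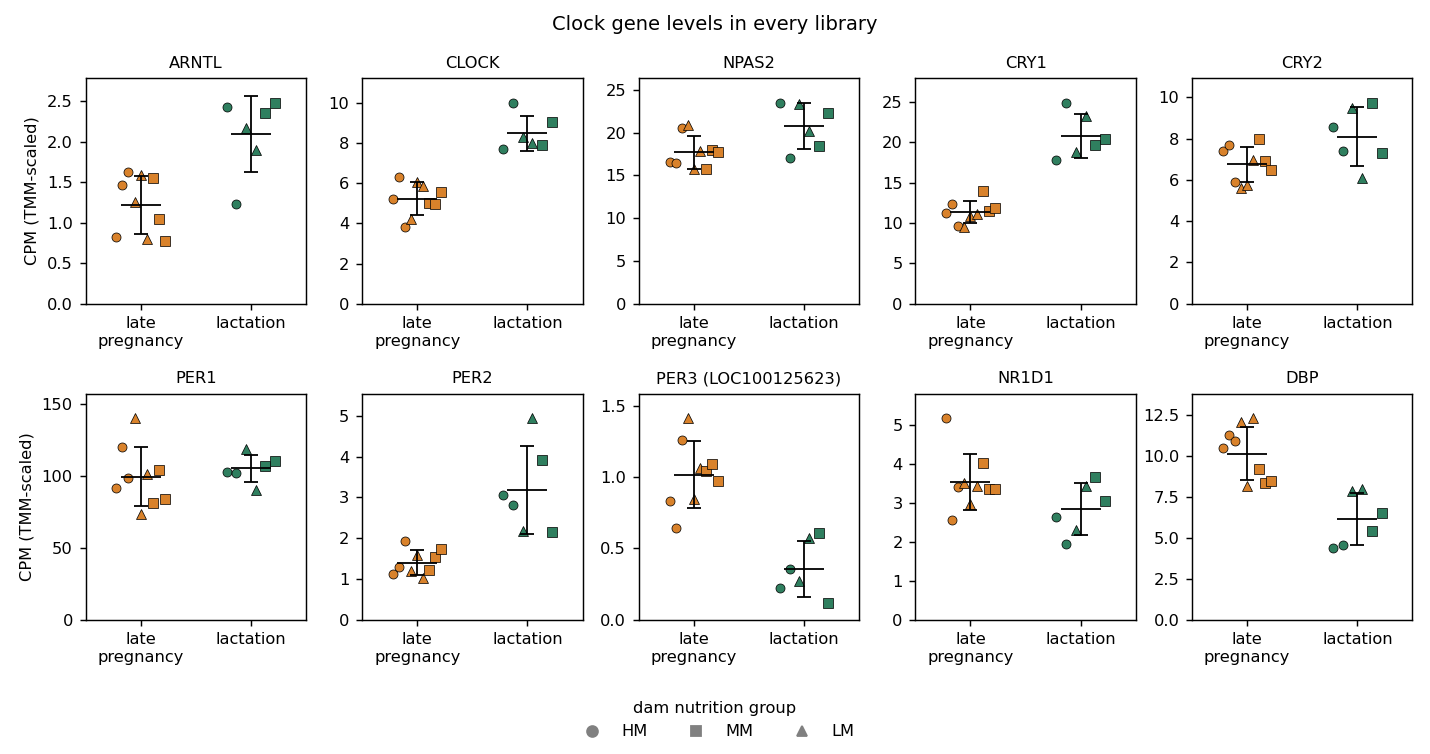
Levels of the 10 clock genes in CPM on TMM-scaled library sizes (y axis, from 0) in the 9 late pregnancy and 6 lactation libraries, with symbols for the dam nutrition group, and with bars for the mean and 1 SD. CLOCK, CRY1 and PER2 lie higher in every lactation library, DBP and PER3 lie lower in every one, and ARNTL, NPAS2, CRY2, PER1 and NR1D1 overlap.

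Reads on introns gave a further readout of the same libraries, nearer to newly made transcripts. In this readout 29.0% of 10344 tested genes were called lower and 29.0% higher in lactation. Of the 9 clock genes 8 were tested, since PER2 with its 1 to 13 intron reads per library did not pass the filter. Among these 8, 4 were higher (ARNTL, CLOCK, NPAS2 and CRY1), 2 were lower (NR1D1 and DBP) and 2 were not called (PER1 and CRY2).

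The intron level of CRY1 was 9.05 to 14.4 CPM in late pregnancy (median 11.4 CPM) and 16.9 to 25.3 CPM in lactation (median 20.6 CPM), with no overlap. Its log2 change of 0.85 (SE 0.16, edgeR adjusted p = 8.0e-05) was close to the 0.88 of its exon reads. NPAS2 introns ran from 64.4 through 76.3 to 87.5 CPM in late pregnancy and from 92.4 through 104 to 116 CPM in lactation. Here the states did not overlap, unlike in its exon reads, and the log2 change was 0.46 (SE 0.09, edgeR adjusted p = 1.2e-04).

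For ARNTL introns the log2 change was 0.73 (SE 0.21, edgeR adjusted p = 0.00455), with libraries at 6.07 to 10.1 CPM in late pregnancy and 6.48 to 18.8 CPM in lactation. CLOCK introns changed by 0.31 on the log2 scale (SE 0.11, edgeR adjusted p = 0.0224), a call that was lost without HM lactation pool 2 (adjusted p = 0.0646) or without LM lactation pool 1 (adjusted p = 0.078). Both genes overlapped between the states in this readout.

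NR1D1, which was not called from its exon reads, was lower in introns. Its intron level was 22.9 to 31.4 CPM in late pregnancy (median 27.3 CPM) and 15.9 to 22.7 CPM in lactation (median 17.9 CPM), so the states just failed to overlap, and the log2 change was -0.54 (SE 0.13, edgeR adjusted p = 0.00137). DBP introns fell from 37.2 to 59.3 CPM in late pregnancy (median 43.8 CPM) to 13 to 29.5 CPM in lactation (median 24.8 CPM). This was a log2 change of -0.97 (SE 0.15, edgeR adjusted p = 7.3e-06) with no overlap. PER3 introns also were lower, at 9.57 to 15.6 CPM against 3.28 to 9.81 CPM (log2 change -0.83, SE 0.23, edgeR adjusted p = 0.00333), with a small overlap. PER1 (log2 change 0.19, SE 0.19, edgeR adjusted p = 0.416) and CRY2 (0.19, SE 0.11, edgeR adjusted p = 0.171) did not pass, and CRY2 did so when LM lactation pool 2 was left out (adjusted p = 0.044). Whether the difference between the exon and intron changes of a gene exceeds its error was not tested.

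**Figure D2:**
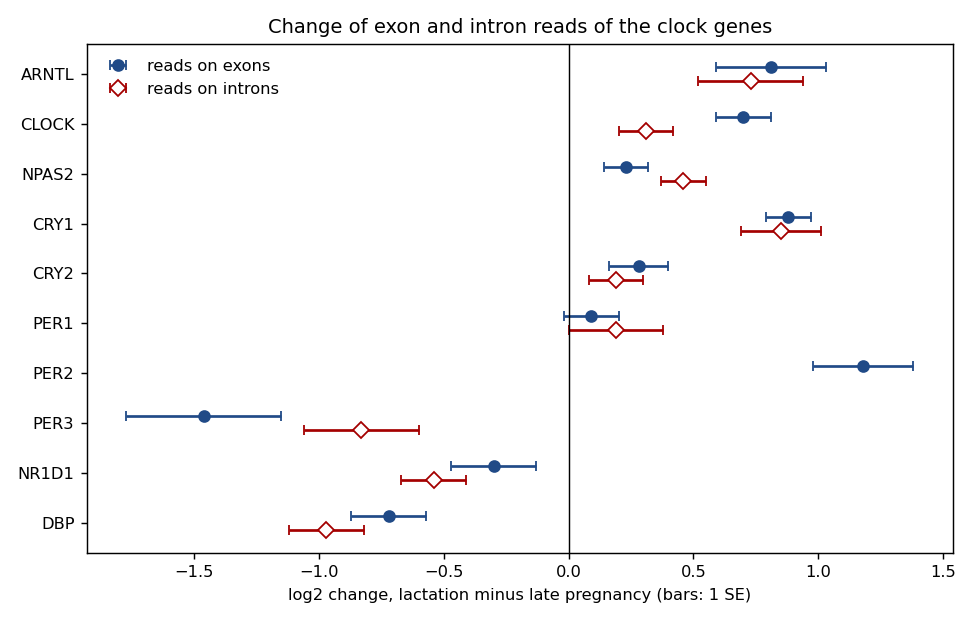
Log2 change from late pregnancy to lactation (x axis, lactation minus late pregnancy, bars of 1 SE) for reads on exons (filled circles) and on introns (open diamonds) of the 10 clock genes. Both readouts lie above 0 for ARNTL, CLOCK, NPAS2 and CRY1 and below 0 for NR1D1, DBP and PER3, and PER2 has exon reads only.

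Levels of the genes were compared with each other as CPM per kilobase of exon. PER1 was the most abundant clock transcript in both states, at a median of 24.3 CPM per kilobase in late pregnancy and 25.9 in lactation, with no library of any other clock gene reaching its range. DBP came next in late pregnancy (11.3 CPM per kilobase), clear of CRY1 (6.32), which overlapped NPAS2. In lactation CRY1 (11.3) stood above DBP (6.39) without overlap, so these 2 genes changed places.

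NPAS2 and CRY2 followed in both states, at 4.77 and 4.09 CPM per kilobase in late pregnancy and 5.72 and 4.71 in lactation, with ranges that overlapped each other. In lactation NPAS2 also overlapped DBP, and CRY2 overlapped CLOCK. CLOCK (2.05) and NR1D1 (1.83) overlapped in late pregnancy and were apart in lactation (3.2 and 1.53). ARNTL (0.672) and PER2 (0.64) could not be ordered in late pregnancy, nor could NR1D1, PER2 (1.47) and ARNTL (1.2) be separated as neighbours in lactation. PER3 was the lowest in both states, at 0.301 and 0.0897 CPM per kilobase.

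**Figure D3:**
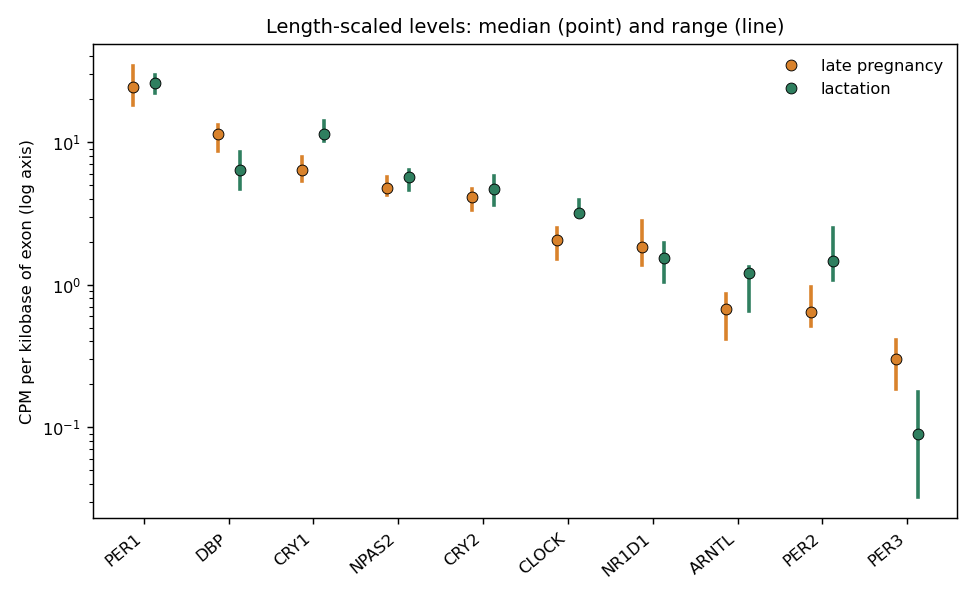
Level of each clock gene as CPM per kilobase of exon (y axis, log scale), with the median as a point and the range over 9 late pregnancy or 6 lactation libraries as a line, in the late pregnancy order. PER1 is highest and PER3 lowest in both states, and DBP and CRY1 change places.

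The genes also differed in how much the libraries of 1 state varied. PER1 had a coefficient of variation of 20.6% in late pregnancy, against 2.33% from read counting alone, and its SD on the log2(CPM + 1) scale was at percentile 91.5 of all tested genes. In lactation the same gene varied by 9.22%, with 3.86% from counting. DBP varied by 16.1% in late pregnancy (7.27% from counting) and 25.9% in lactation (16.5%). In lactation the variation of ARNTL (22.5%), CLOCK (10.4%) and NR1D1 (23.4%) was no larger than counting alone would give (28.2%, 13.5% and 24.1%). For PER3 this held in both states, with 22.8% in late pregnancy and 55.5% in lactation against 23.8% and 76.1% from counting.

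No clock gene was called between the dam nutrition groups. In the 9 late pregnancy libraries 0 of 13747 genes were called by the edgeR F-test over the 3 groups (0% of genes), 571 (4.15%) had an unadjusted p under 0.05, and DESeq2 called 20. None of the 9 clock genes or PER3 was called by either tool, with an adjusted p that rounds to 1 for each of them in edgeR and DESeq2. None had an unadjusted p under 0.05 in edgeR, and the smallest was 0.0941 for DBP. As an example of the spread, PER1 in late pregnancy was 103 ± 14.7 CPM in HM, 89.9 ± 12.3 CPM in MM and 105 ± 33.2 CPM in LM (SD, n = 3 each).

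The interaction of dam group and state was called for 0 of 13345 genes (0%) by edgeR, with 876 (6.56%) at an unadjusted p under 0.05. Without a filter on low counts 2 genes were called, neither of them a clock gene. DBP had the smallest unadjusted p of the 10 features (0.0312, edgeR adjusted p = 0.741). Its difference on the log2(CPM + 1) scale was -1.12 in HM, -0.39 in LM and -0.48 in MM. For each of the 10 genes the difference between the states had 1 direction in all 3 dam groups, though for PER1 in HM it was 0.00 after rounding. The column names of the table carry a lane number, while the labels say that every library ran on 2 lanes and the reads were combined. Split by that number, with 4 late pregnancy and 3 lactation libraries at lane 7 and 5 and 3 at lane 8, every gene kept its direction, and DBP differed by -0.90 and -0.41 on the log2(CPM + 1) scale.

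Ratios between genes within a library do not depend on its scaling. ARNTL and NR1D1 are linked by repression and are out of phase in most tissues. The log2 ratio of ARNTL to NR1D1, in reads per kilobase, was -2.66, -1.49 and -0.83 at the lowest, median and highest late pregnancy library and -0.87, -0.49 and -0.11 in lactation. The medians differed by 1.00, and the ranges touched, with 1 lactation library just below the highest of late pregnancy.

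Against DBP, the log2 ratio of ARNTL ran from -4.95 through -4.02 to -3.37 in late pregnancy and from -3.08 through -2.64 to -1.87 in lactation, with no overlap. The ratio of NPAS2 to PER3 was 3.79 to 4.59 (median 3.97) in late pregnancy and 4.82 to 7.53 (median 5.92) in lactation, also apart, with the few PER3 reads of lactation behind its wide range. CRY1 to CRY2 was closely grouped in late pregnancy, at 0.53 to 0.86 (median 0.68), and lay higher in lactation, at 0.93 to 1.87 (median 1.21). In all 4 ratios the gene that is known to peak near ARNTL, or CRY1 over CRY2, had the larger share in lactation. Since the changes of the single genes were known when the ratios were chosen, these values are a description.

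**Figure D4:**
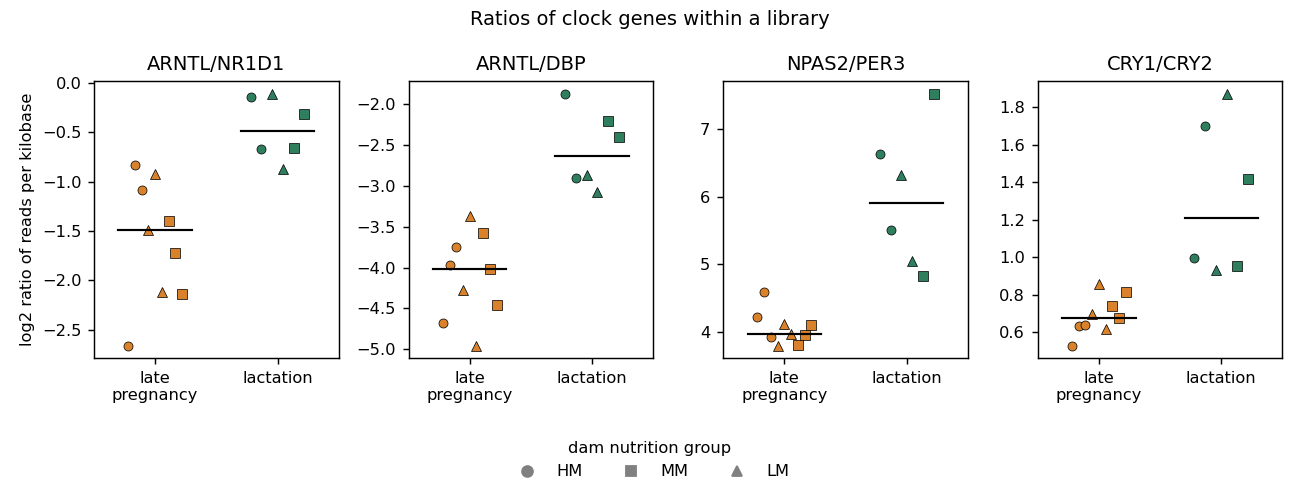
Log2 ratio of reads per kilobase of 2 clock genes within each library (y axis, a separate scale in each panel), by state, with a line at the median and symbols for the dam nutrition group. ARNTL to DBP, NPAS2 to PER3 and CRY1 to CRY2 lie higher in every lactation library, and ARNTL to NR1D1 overlaps slightly.

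The differences were set beside the order of the clock known from other tissues, with 2 lists drawn from that order. The genes known to peak near ARNTL (ARNTL, NPAS2, CLOCK, CRY1 and the repressor NFIL3) were higher in lactation in 5 of 5 cases, with a median log2 change of 0.81, while 33.1% of all tested genes were called higher. This count was 4 without HM lactation pool 1, and 4 with upper quartile scaling, NPAS2 being lost in both. All genes of this list but NFIL3 were already described above as higher, so the 5 of 5 is no separate test. Both lists were chosen with earlier results of these data known. NFIL3 rose from 10.9 to 15 CPM in late pregnancy to 23.6 to 35 CPM in lactation (log2 change 1.24, SE 0.09, edgeR adjusted p = 1.0e-10).

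The genes known to peak at about the opposite time did not move together. Of 9 that were tested, PER3 and DBP were lower, PER2 and HLF were higher, and NR1D1, NR1D2, PER1, TEF and BHLHE41 were not called, with a median log2 change of 0.02. These 4 calls among 9 genes stand beside the 68.4% of all tested genes that were called. With upper quartile scaling 3 were lower and 2 higher, with NR1D1 as the third, beside 44.9% lower and 25.6% higher over all genes. Without the milk protein genes in the library size 4 were lower and 2 higher, beside 48.6% and 22.7%. HLF, like DBP an activator at D-box elements, ran from 1.81 to 2.95 CPM in late pregnancy and from 4.94 to 7.38 CPM in lactation, with no overlap (log2 change 1.27, SE 0.13, edgeR adjusted p = 6.2e-08). Its direction was thus opposite to that of DBP. NR1D2, the relative of NR1D1, changed by 0.02 (SE 0.13) and TEF by 0.11 (SE 0.18). PER2, which in most tissues peaks some hours after PER1, is on this list, and its log2 change of 1.18 exceeded that of every gene of the first list except NFIL3. Under a single shift of phase only genes at opposite times must move in opposite directions, and genes that peak in between, such as PER2, need not. The ARNTL list was higher, DBP and PER3 were lower, and PER2 and HLF were higher. NR1D1, NR1D2, PER1, TEF and BHLHE41 did not pass the test on exon reads. In introns NR1D1 was lower (log2 change -0.54, edgeR adjusted p = 0.00137) and HLF higher (1.28, edgeR adjusted p = 1.4e-07). Whether a single shift of phase underlies these directions was not tested.

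Where libraries of 1 state differ in phase, clock genes may move with or against each other, and this was looked at over the 9 late pregnancy libraries. Each pool averages over ewes, and counting error was large for genes with few reads. PER2 varied by 22% against 19.5% from counting alone, and ARNTL by 29.5% against 21.6%. Pairs that did not pass therefore cannot decide whether the libraries differed in phase. Of 45 pairs of the 10 genes, 0 passed a Benjamini-Hochberg adjusted p of 0.05 in an exact two-sided permutation test of Pearson's r on log2(CPM + 1) over all 362880 orders, and 6 had an unadjusted p under 0.05. The highest r was 0.84 for CRY1 and CRY2 (exact permutation p = 0.00327, adjusted p = 0.121, Spearman's rho 0.83 with exact permutation p = 0.00827, r = 0.68 without the 2 libraries farthest from the median). In the 6 lactation libraries the same pair had r = -0.71. The lowest r was -0.83 for CLOCK and PER3 (exact permutation p = 0.00571, adjusted p = 0.121, rho = -0.82 with exact permutation p = 0.0108, r = -0.66 without 2 libraries), with r = -0.29 in lactation. PER3 varied no more in late pregnancy than counting alone would give (22.8% against 23.8%), so this r is not read as a relation. CLOCK and NPAS2 had r = -0.77, which fell to -0.16 without 2 libraries and so rested on them. NPAS2 and CRY1, both of the ARNTL list, had r = -0.80 (exact permutation p = 0.0106, adjusted p = 0.121). Their r was -0.37 without 2 libraries and -0.76 in lactation. In 21 of 45 pairs the sign of r was the same in lactation.

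The genes whose levels followed ARNTL or NR1D1 most closely from library to library, after the mean of each state was removed, were not among the listed clock genes. Over 15 libraries and 12263 tested genes averaging 1 CPM or more, the 5 with the highest r to ARNTL were PSMA4 (0.80), GTF2F2 (0.77), LOC101108472 (0.76), SFN (0.75) and HOXB7 (0.74). The 5 lowest were UPF1 (-0.81), KLHL26 (-0.76), and BCL9L, CD58 and PIP5K1C (-0.74 each). For NR1D1 the highest were LOC101120693 and TMEM131 (0.85 each) and PABPC1, STAU1 and PSMF1 (0.83 each), and the lowest were MKLN1 (-0.86), PRKD3 (-0.84), LNX2 (-0.83), EPB41L5 (-0.82) and LOC101107175 (-0.81). With so many genes and 15 libraries such extremes are a description only. Counting error also limits these r. In lactation the variation of ARNTL (22.5%) and NR1D1 (23.4%) did not exceed that from counting (28.2% and 24.1%). In late pregnancy it was 29.5% against 21.6% for ARNTL and 20.6% against 12.6% for NR1D1. A low r with either gene therefore cannot decide whether 2 genes were linked. ARNTL and NR1D1 had r = 0.03 with each other, which placed NR1D1 at rank 5707 from the top. ARNTL had r = 0.07 with DBP, with PER1 and with PER2, and -0.37 with CLOCK. Among the other clock-linked genes, those nearest the extremes were POR with NR1D1 (r = 0.69, rank 44 from the top), HLF with ARNTL (r = -0.61, rank 71 from the bottom) and BHLHE40 with NR1D1 (r = 0.65, rank 88 from the top).

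Around these genes, 4 further lists of clock-linked genes held 39 genes, of which 37 were matched and 34 tested, and 17 were higher and 8 lower in lactation. The total called was near the background, since 68.4% of all tested genes were called (33.1% higher and 35.2% lower). The surplus of higher over lower calls changed with the scaling, as given next. These counts are no result about these lists. With upper quartile scaling the counts were 11 and 10, beside 25.6% higher and 44.9% lower over all genes. With library sizes counted without milk protein genes they were 11 and 14, beside 22.7% and 48.6%. These scalings of the lists were chosen after seeing the data. ARNTL2, RORB and FBXL21 had at most 3 reads in every library.

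Of the 7 tested genes in the core loops and at D-box elements 4 were higher and 0 were lower by edgeR, beside 33.1% and 35.2% of all tested genes. RORA, a receptor that activates ARNTL in opposition to NR1D1, had the largest rise. It was 25.2 to 36.3 CPM in late pregnancy (median 29.6 CPM) and 108 to 150 CPM in lactation (median 123 CPM), 4.25-fold higher with no overlap (log2 change 2.09, SE 0.08, edgeR adjusted p = 2.2e-14). RORA was also the 1 gene of the 34 that remained higher with library size alone (log2 change 0.18, edgeR adjusted p = 0.0428). BHLHE40, a repressor at E-boxes, was 7.52 to 17 CPM and 9.84 to 27.4 CPM (log2 change 0.50, SE 0.21, edgeR adjusted p = 0.0435), a call that was lost with upper quartile scaling.

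NR1D1 represses through NCOR1 with the deacetylase HDAC3. NCOR1 was 1.24-fold higher, with no overlap (83.8 to 89.8 CPM against 102 to 112 CPM, edgeR adjusted p = 1.2e-06). HDAC3 changed by -0.11 on the log2 scale (SE 0.09, edgeR adjusted p = 0.264), and was called lower with upper quartile scaling (-0.26, edgeR adjusted p = 0.0114) and with library sizes counted without milk protein genes (-0.32, adjusted p = 0.00179).

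Among 15 tested genes for the turnover of clock proteins 8 were higher and 3 lower, beside 33.1% and 35.2% of all tested genes. With upper quartile scaling the counts were 4 and 4, beside 25.6% higher and 44.9% lower over all genes. The kinases that mark PER proteins for breakdown diverged. CSNK1E was 5.81-fold lower in lactation, from 5.62 to 8.79 CPM to 0.703 to 2.2 CPM with no overlap (log2 change -2.54, SE 0.20, edgeR adjusted p = 8.9e-10). With 4 to 17 reads per lactation library, the size of this fall is known only coarsely. CSNK1D, its close relative, was slightly higher with no overlap (30.2 to 34.6 CPM against 35.5 to 41.1 CPM, log2 change 0.26, SE 0.05, edgeR adjusted p = 1.5e-04), a call that was lost with upper quartile scaling. FBXW11, which acts on PER proteins, rose 1.66-fold (edgeR adjusted p = 1.2e-07). PRKAA2, a catalytic subunit of AMP-activated kinase, rose 2.38-fold (edgeR adjusted p = 3.6e-07), while PRKAA1 changed by -0.12 (SE 0.13, edgeR adjusted p = 0.423). PRKAA1 was called lower with library sizes counted without milk protein genes (-0.32, edgeR adjusted p = 0.032).

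Of 10 outputs and modulators of the clock 4 were higher and 5 lower, not far from the shares over all genes (33.1% and 35.2%). CCRN4L (nocturnin) rose from 0.548 to 1.03 CPM to 1.14 to 3.79 CPM (log2 change 1.41, SE 0.22, edgeR adjusted p = 1.0e-05), on 6 to 30 reads per library. NAMPT, the rate-limiting enzyme of NAD salvage, was 1.83-fold higher, with overlap of the states (log2 change 0.87, SE 0.11, edgeR adjusted p = 1.2e-06). WEE1, a cell cycle kinase with E-boxes in its promoter, fell from 12.7 to 19 CPM to 9 to 10.8 CPM (log2 change -0.72, SE 0.09, edgeR adjusted p = 7.6e-07). KLF10 fell 2.41-fold (edgeR adjusted p = 4.1e-10), while KLF9 changed by 0.01 (SE 0.07, edgeR adjusted p = 0.891), and by -0.20 (adjusted p = 0.0155) with library sizes counted without milk protein genes. PPARGC1A, a coactivator of the ROR receptors at ARNTL, was 0.738 to 2.77 CPM in late pregnancy and 0.113 to 0.878 CPM in lactation (log2 change -1.80, SE 0.44, edgeR adjusted p = 0.00131). Its lactation libraries held only 1 to 5 reads each.

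**Figure D5:**
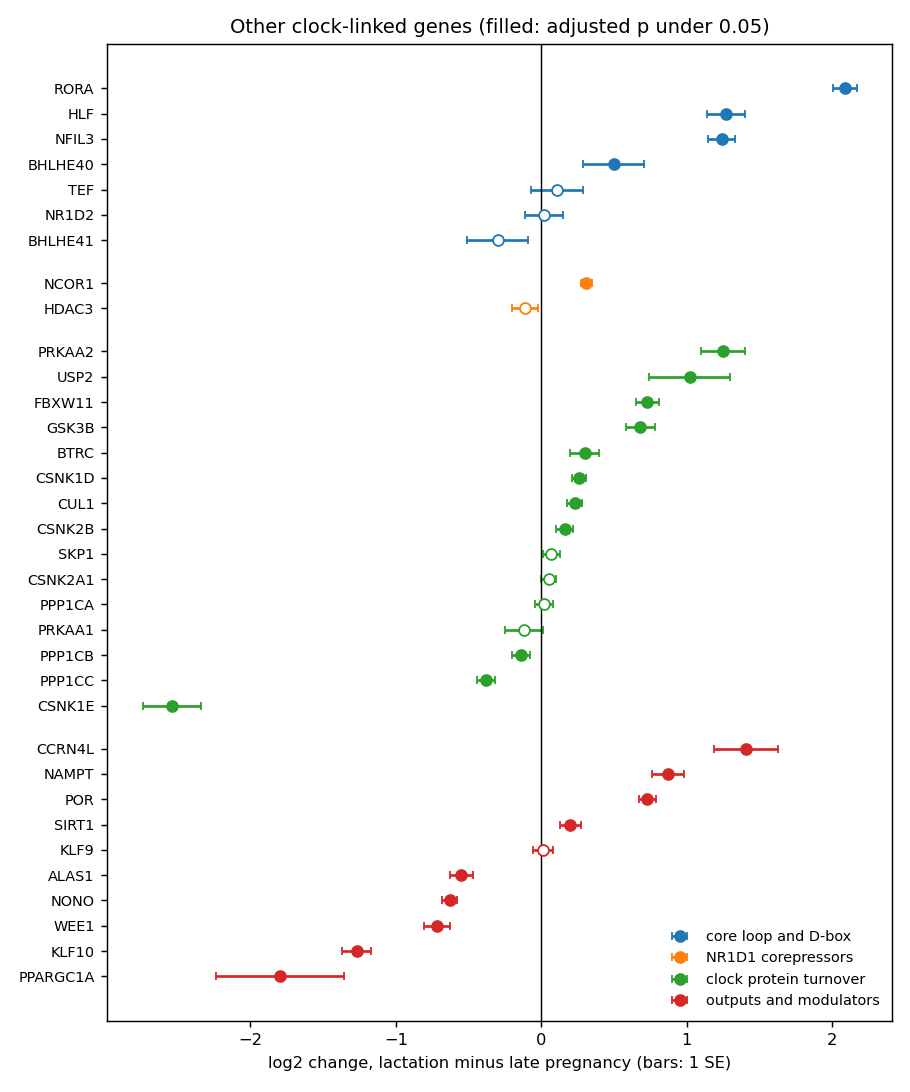
Log2 change from late pregnancy to lactation (x axis, bars of 1 SE) of the 34 tested clock-linked genes outside the core list, grouped by role, with filled points for genes called at an edgeR adjusted p under 0.05. RORA has the largest rise and CSNK1E the largest fall.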

How the data were processed

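Total RNA of pooled mammary biopsies was sequenced as 15 libraries (TruSeq RNA kit, Illumina HiSeq, paired ends). Per the study's methods, reads were mapped to the sheep genome in CLC Genomics Workbench, whose version is not given in the sources used here. The build is Oar_v3.1 in the submitters' processing notes and a later one in the methods. The authors deposited counts of reads on exons and on whole genes, both for all reads and for unique ones, as raw numbers. RPKM in the deposited table are exon reads scaled by exon kilobases and by total reads on genes, given as such and after quantile normalization. The deposited fold changes, p-values and corrected p-values of the authors' Baggerly test were not used.

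Counts on exons (whole gene for the 5583 features with no transcript) were analysed in edgeR 4.0.16 under R 4.3.3, with filterByExpr, TMM scaling, quasi-likelihood F-tests and Benjamini-Hochberg adjustment over all tested genes. Counts used per library were 6471237 to 16898986 in late pregnancy and 9014506 to 24001031 in lactation. Intron reads are gene reads less exon reads. SE is the absolute log2 change divided by the root of F. Dam nutrition was tested over 9 libraries and its interaction with the state over 15. DESeq2 1.42.0 and limma 3.58.1, on log2(quantile-normalized RPKM + 1), were alternatives, with other scalings, no filter, unique reads, dam group as covariate, a replicate block and single libraries left out. Python 3.11.15 did the rest. Reads carry no molecular identifiers, so spread expected from counting covers counting error only.

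The clock genes, lists and ratios were chosen with earlier results of these data known. Named are all listed clock genes, genes of the clock-linked lists that a sentence turns on, and the 5 highest and 5 lowest r for ARNTL and NR1D1. Some genes of the clock-linked lists are not reported here and were left out of their counts.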

Additional observations from a re-analysis of the deposited data

How the results depend on the processing

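With library size alone, 9 clock genes were lower and 0 higher, with log2 changes of -1.09 for ARNTL, -1.21 for CLOCK, -1.67 for NPAS2, -1.81 for PER1, -0.71 for PER2, -1.04 for CRY1 and -1.62 for CRY2, and 97.3% of all called genes were lower, against 51.6% with TMM. With library sizes counted without milk protein genes, or with upper quartile scaling, 2 clock genes were lower in each case, PER1 turned to -0.12 and -0.06, and 68.1% and 63.7% of called genes were lower. In limma on log2(quantile-normalized RPKM + 1), a scale that compresses changes of low genes, PER1 was -0.08, ARNTL 0.50, PER2 0.72, PER3 -0.20 and NR1D1 -0.07, and the calls were the same as in edgeR. NR1D1 was called lower in both of these scalings (-0.50, edgeR adjusted p = 0.0125, and -0.45, adjusted p = 0.0246). Without a filter on low counts NPAS2 (edgeR adjusted p = 0.0902), CRY2 (0.102) and the introns of CLOCK (0.0853) were not called. Leaving out each library in turn gave 4 to 6 clock genes higher and 1 lower, and 3 to 5 higher and 2 lower in introns. No clock gene was called for the interaction in any of these, and over all genes 10 were called without HM lactation pool 2 and 2 without LM lactation pool 2. The dam groups in late pregnancy gave 1 called gene without LM late pregnancy pool 1, and it was no clock gene. Over these fits with 1 library left out, log2 changes between the states ranged from 0.74 to 0.91 for ARNTL, 0.65 to 0.73 for CLOCK, 1.04 to 1.29 for PER2, 0.82 to 0.92 for CRY1, -0.80 to -0.65 for DBP and -1.82 to -1.24 for PER3.

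Pools with the same number in the same dam group had correlations of their deviations of -0.0231 to 0.0651, too low to take the numbers as pairing the libraries. Of the 6 lactation pools 4 had their highest correlation with the late pregnancy pool of the same number. The 2 lactation pools of a dam group deviate from their mean by equal and opposite amounts. These pools are therefore not independent here, and the count cannot decide whether the numbers pair the libraries. With a replicate block, 5 clock genes were higher and 1 was lower, CRY2 was lost (log2 change 0.24, edgeR adjusted p = 0.108) and 8464 genes were called in place of 9122. The low read numbers of ARNTL, PER2 and PER3 limit the precision of their changes.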

Other observations

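Glucocorticoid hormone acts on PER1 and resets clocks in peripheral tissues, and 7 of its known target genes were therefore read out beside the clock. Of these, 3 were higher in lactation, 0 were lower and 4 were not called, with a median log2 change of 0.09, while 68.4% of all tested genes were called in 1 direction or the other. ZBTB16 was 2.57 to 5.94 CPM in late pregnancy and 7.47 to 15.1 CPM in lactation (log2 change 1.52, SE 0.16, edgeR adjusted p = 4.9e-08), and the phosphatase gene DUSP1 was 31 to 58.8 CPM and 63.9 to 92.6 CPM (log2 change 1.00, SE 0.12, edgeR adjusted p = 6.0e-07). FKBP5, which binds the glucocorticoid receptor complex, was 47.1 to 100 CPM and 120 to 147 CPM (log2 change 0.70, SE 0.14, edgeR adjusted p = 2.1e-04). None of these 3 overlapped between the states, beside 40.2% of all tested genes without overlap. TSC22D3 (log2 change 0.09, SE 0.09) and SGK1 (-0.12, SE 0.14) did not pass the test, nor did PER1 and KLF9, the other genes of the list. With library size alone all 7 were lower, beside 95.2% of all tested genes. With library sizes counted without milk protein genes 3 were higher and 2 lower, beside 22.7% higher and 48.6% lower over all genes. The list was chosen with earlier results of these data known.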
